A study of Mus musculus with 10 samples.

Results

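The BCL2 family genes of the mouse heart were examined in 5 training hearts and 5 sedentary hearts. The 10 genes taken were the anti-apoptotic members Bcl2l1, Bcl2 and Mcl1, the effectors Bax and Bak1, the BH3-only members Bad, Bbc3 and Bcl2l11, and the mitophagy receptors Bnip3 and Bcl2l13. They were chosen by name, with earlier results of these data known. All 10 were found among the 56748 gene identifiers of the count tables. All 10 also passed the filter on low counts, which left 15454 genes for testing.

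The mice were wild-type males of the C57BL/6 strain, bought at an age of 8 weeks, with no transgene or deletion in either group. The training group, labelled Exercise, ran on a small-animal treadmill for 8 weeks after a week of acclimatization, on 5 days a week, for 120 min a day at 15 m/min. The sedentary group, labelled Control mouse by title, was of the same age and was not trained. RNA of the whole heart, atria and their appendages included, was made into 1 directional poly-A library per mouse, and the libraries were sequenced as 1 pool of single reads. How the sequenced mice were picked from the larger training group is not given in the sources used here.

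BCL2 family proteins decide whether the outer membrane of the mitochondrion stays closed. The effectors BAX and BAK form pores that release cytochrome c, which activates caspases. The anti-apoptotic proteins hold the effectors and the BH3-only proteins in check, whereas BH3-only proteins carry stress signals to them. Heart muscle cells are rich in mitochondria and are replaced very slowly, and the family is well known there for its part in ischemic injury, while BNIP3 and BCL2L13 are known as receptors that mark mitochondria for removal by autophagy. RNA levels are measured here, and most of these proteins are also regulated by binding, phosphorylation and turnover.

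Bcl2l1 and Bcl2l11 carried the differences between the groups, and the 250 bases upstream of their annotated starts are therefore shown, read 5′ to 3′ on the strand of each gene from the GRCm39 assembly. Both genes lie on chromosome 2, Bcl2l1 at chr2:152622582-152673655 on the minus strand with 24 annotated transcripts and Bcl2l11 at chr2:127967958-128004476 on the plus strand with 10. The stretch of Bcl2l1 is chr2:152673656-152673905 and that of Bcl2l11 is chr2:127967708-127967957. Capitals mark matches to the E-box CACGTG, the GC box GGGCGG, the FOXO motif TGTTTAC and the STAT motif TTCNNNGAA on either strand.
Bcl2l1: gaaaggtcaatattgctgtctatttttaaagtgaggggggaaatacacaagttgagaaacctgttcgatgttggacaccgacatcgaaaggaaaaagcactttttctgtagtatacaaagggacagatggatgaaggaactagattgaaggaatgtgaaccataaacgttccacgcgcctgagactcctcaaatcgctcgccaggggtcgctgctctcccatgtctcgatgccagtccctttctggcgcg
Bcl2l11: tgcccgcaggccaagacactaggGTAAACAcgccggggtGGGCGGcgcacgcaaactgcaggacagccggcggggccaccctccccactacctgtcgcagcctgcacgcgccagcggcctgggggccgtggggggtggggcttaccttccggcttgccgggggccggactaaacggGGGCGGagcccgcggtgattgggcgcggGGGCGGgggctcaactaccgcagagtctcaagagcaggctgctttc
The stretch of Bcl2l1 had a GC content of 47.2% and held no match to these motifs, nor to the AP-1 motif TGANTCA or the CCAAT box CCAAT, which makes 6 motifs searched. That of Bcl2l11 had a GC content of 72% and held a FOXO match on the opposite strand that began at position −227 from the start, 3 GC boxes and a CCAAT box. The FOXO motif occurred in 2.66% of the stretches of the same length upstream of 15393 tested genes, the GC box in 37.4%, the CCAAT box in 34.3%, the E-box in 6.66%, the STAT motif in 6.86% and the AP-1 motif in 5.03%. Among the other members, the FOXO motif also stood upstream of Bak1, and the E-box upstream of Bax and Bnip3. GC boxes were found upstream of 7 of the 10 members. Bcl2l1 has several annotated starts, and only the most upstream was searched. These matches describe the letters and are not binding sites measured in these hearts.

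Of the 10 members, Bcl2l1 was lower and Bcl2l11 was higher in the training hearts, while the other 8 did not pass the threshold. Bcl2l1 encodes BCL-XL, an anti-apoptotic protein of the outer mitochondrial membrane, and Bcl2l11 encodes BIM, a BH3-only activator of cell death. Bcl2l1 RNA fell by 35.8% and Bcl2l11 RNA was 29.6% higher than in sedentary hearts. Calls rest on edgeR's quasi-likelihood test on read counts with Benjamini-Hochberg adjustment over all 15454 genes at a false discovery rate (FDR) below 0.1, and every adjusted p-value of an expression difference given here comes from that test unless DESeq2 is named. The members called were 2 of 10, beside 7.01% of all tested genes. As the members were chosen with earlier results known, these shares are a description and no test of the family. In the same fit 2.75% of all genes were called higher and 4.26% lower. The groups did not overlap in 2 of the 10 members, the same pair, beside 5.06% of all genes. The median log2 fold change was −0.054 over the members and 0.00026 over all genes, with 3 members above 0 and 7 below.

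**Figure D1:**
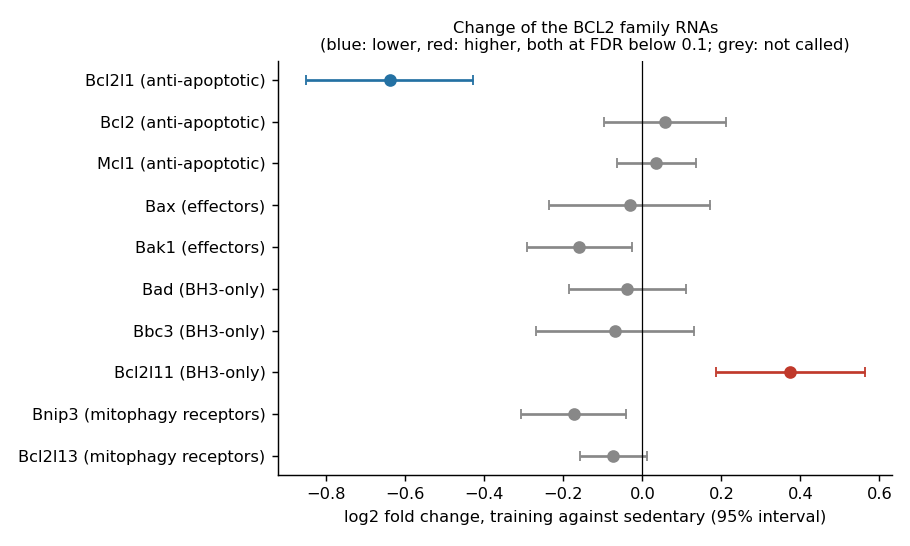
Log2 fold change, training over sedentary, for each BCL2 family gene (points), with its 95% interval from the edgeR fit (bars), 5 hearts per group. The interval of Bcl2l1 runs from −0.85 to −0.43 and that of Bcl2l11 from 0.19 to 0.56, and the grey genes did not pass an FDR below 0.1.

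Levels within a gene are given as CPM, read counts relative to library size, scaled by TMM factors that correct for composition. Among the anti-apoptotic members, Bcl2l1 (ENSMUSG00000007659) stood at 52.0, 43.5, 52.8, 48.7 and 55.3 CPM in training hearts 1 to 5. The sedentary hearts 1 to 5 had 59.4, 86.7, 74.1, 89.5 and 83.6 CPM. All training hearts lay below all sedentary hearts, and the gap was narrowest between training heart 5 and sedentary heart 1. The means were 50.5 ± 4.53 CPM (SD, n = 5) and 78.7 ± 12.3 CPM (SD, n = 5), from between 1520 and 3146 reads per heart. The log2 fold change was −0.64 with a standard error (SE) of 0.098 (adjusted p = 0.00871). As these are bulk samples, fewer cells of a type and less RNA per cell cannot be told apart.

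Bcl2 (ENSMUSG00000057329, chr1:106465908-106642060), the founding anti-apoptotic member, showed no such difference. Its level was 10.1 ± 0.51 CPM (SD, n = 5) in training hearts and 9.69 ± 0.94 CPM (SD, n = 5) in sedentary hearts, with ranges of 9.59 to 10.8 and 8.60 to 11.0 CPM. The log2 fold change was 0.057, with a 95% interval from −0.098 to 0.21 (adjusted p = 0.715). The interval therefore leaves out a decrease of the size seen for Bcl2l1.

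Mcl1 (ENSMUSG00000038612, chr3:95566026-95570487) encodes a short-lived anti-apoptotic protein that heart muscle needs for its mitochondria. It ranged from 195.2 to 214.4 CPM in training hearts and from 181.8 to 212.9 CPM in sedentary hearts. Its log2 fold change was 0.035, with a 95% interval from −0.065 to 0.14 (adjusted p = 0.732). Of the anti-apoptotic genes taken here, Bcl2l1 was thus the only member called.

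**Figure D2:**
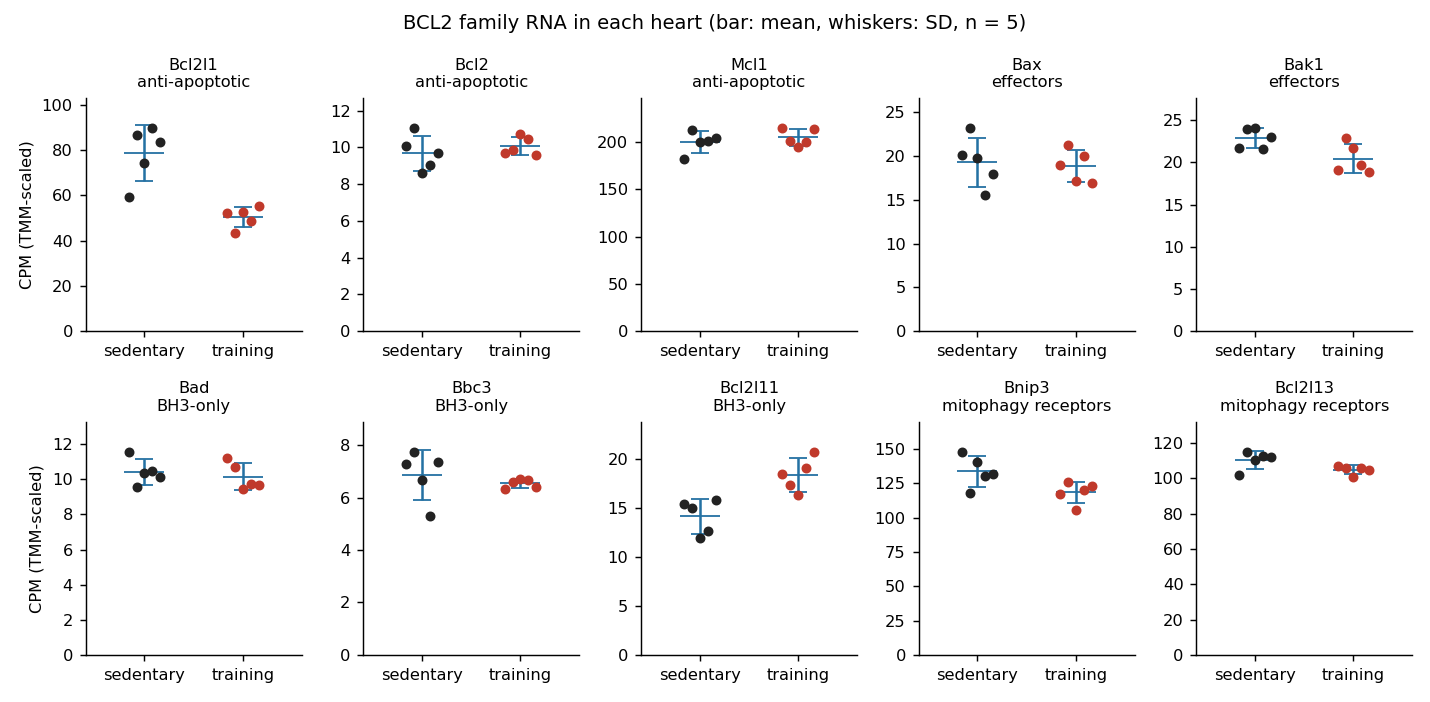
CPM of each BCL2 family gene in each sedentary heart (black) and training heart (red), with the mean (long bar) and SD (whiskers) of 5 hearts per group and axes that start at 0. The training and sedentary points stand apart in Bcl2l1 (43.5 to 55.3 against 59.4 to 89.5 CPM) and Bcl2l11 (16.3 to 20.7 against 11.9 to 15.8 CPM) and overlap in the other 8 genes.

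The effectors Bax and Bak1, whose proteins form the pore in the outer mitochondrial membrane, did not pass the threshold. Bax (ENSMUSG00000003873, chr7:45111015-45116325) was at 18.9 ± 1.85 CPM (SD, n = 5) in training hearts and 19.3 ± 2.81 CPM (SD, n = 5) in sedentary hearts. Its log2 fold change was −0.032, with a 95% interval from −0.24 to 0.17 (adjusted p = 0.890), and its sign changed with the scaling of the libraries. The authors' expected counts of Bax, which share out reads that match several genes, came to 133.4% of the uniquely mapped counts used here. The annotation also places a gene model named Gm45808 on the same strand with exons that overlap those of Bax. Which reads made up the excess was not tested.

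Bak1 (ENSMUSG00000057789, chr17:27238784-27247983) had 19.2, 22.9, 21.7, 19.6 and 18.9 CPM in training hearts 1 to 5. In the sedentary hearts it had 21.7, 23.9, 24.0, 21.6 and 23.1 CPM. All 5 training values were below the sedentary mean of 22.9 CPM, yet the groups overlapped in training hearts 2 and 3. Its log2 fold change was −0.16 (SE 0.062, adjusted p = 0.168), and without training heart 2 it was −0.20 with an adjusted p of 0.0767. Bak1 overlaps Ggnbp1 on the opposite strand, and 19.8% of the counts at Bak1 lay on that strand, the largest such share among the members. The counts used are those of the strand of Bak1.

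Of the BH3-only members, Bcl2l11 (ENSMUSG00000027381) was the only member called. It stood at 18.4, 17.3, 16.3, 19.1 and 20.7 CPM in training hearts 1 to 5. The sedentary hearts had 15.4, 15.0, 11.9, 12.6 and 15.8 CPM. Every training heart lay above every sedentary heart, with the closest values in training heart 3 and sedentary heart 5. The means were 18.3 ± 1.69 CPM (SD, n = 5) and 14.1 ± 1.78 CPM (SD, n = 5), from between 442 and 650 reads per heart. This gave a log2 fold change of 0.37 (SE 0.087, adjusted p = 0.0369). The annotation places a gene model named Gm74510 on the same strand with a shared exon. That model is not among the identifiers of the count tables, so its reads would have been counted for Bcl2l11.

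Bad and Bbc3 did not pass the threshold. Bad (ENSMUSG00000024959, chr19:6918902-6929280), whose protein is kept inactive by 14-3-3 proteins when phosphorylated, was between 9.45 and 11.2 CPM in training hearts and between 9.58 and 11.6 CPM in sedentary hearts. Its log2 fold change was −0.038, with a 95% interval from −0.19 to 0.11 (adjusted p = 0.810), and its sign too changed with the scaling. Bbc3 (ENSMUSG00000002083, chr7:16042318-16052130) encodes PUMA, a classical target of p53. It was between 6.34 and 6.69 CPM in training hearts and between 5.29 and 7.74 CPM in sedentary hearts. The log2 fold change of Bbc3 was −0.070, with a 95% interval from −0.27 to 0.13 (adjusted p = 0.730). The training hearts were closer to each other in Bbc3 than the sedentary hearts were, with a coefficient of variation of 2.44% against 14.0%, a difference in spread that was not tested.

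The mitophagy receptors lay below the sedentary mean in all 5 training hearts without passing the threshold, as did Bak1 and Bbc3. Bnip3 (ENSMUSG00000078566, chr7:138490690-138511253), a target of hypoxia-inducible factors, had 117.3, 126.2, 106.0, 120.2 and 123.3 CPM in training hearts 1 to 5. In the sedentary hearts it had 147.9, 117.7, 140.8, 130.3 and 132.0 CPM. Sedentary heart 2 alone reached into the range of the training hearts. The log2 fold change was −0.17 (SE 0.062, adjusted p = 0.141), and without sedentary heart 2 it was −0.22 with an adjusted p of 0.0783. DESeq2 also placed Bnip3 past the threshold, with a log2 fold change of −0.17 and an adjusted p of 0.0962, which made 3 members called by that tool. For Bnip3, as for Bax, the expected counts exceeded the uniquely mapped counts, at 136.8% of them. With the expected counts its log2 fold change was −0.094 (edgeR adjusted p = 0.471). Bcl2l13 (ENSMUSG00000009112, chr6:120813144-120891322) was at 104.8 ± 2.35 CPM (SD, n = 5) in training hearts and 110.3 ± 5.05 CPM (SD, n = 5) in sedentary hearts, with a log2 fold change of −0.073 (95% interval −0.16 to 0.012, adjusted p = 0.329).

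Markers of several cell types were compared between the groups. They are given as the summed CPM of 10 genes per type, none of which was at 0 in all hearts. The calls among them stand beside 7.01% of all tested genes. A sum is led by its most abundant genes. The mean log2 level of the tested genes of a list, used below as its score, overlapped between the groups in all 10 lists. Cardiomyocyte markers summed, as in heart tissue, to between 67752 and 72645 CPM in training hearts and between 71392 and 81231 CPM in sedentary hearts, and 1 of the 10 genes was called, lower. Their log2 fold change was below 0 in 9 of 10, and their score differed by −0.12, training minus sedentary. Fibroblast markers summed to between 3213 and 4213 CPM in training hearts and between 2899 and 3357 CPM in sedentary hearts, with 3 of 10 called, all higher. Of these 10 genes, 9 had a log2 fold change above 0, and the score differed by 0.21. Endothelial markers did not overlap in their sums, at 1475 to 1584 CPM in training hearts and 1634 to 1674 CPM in sedentary hearts. Of these 10 genes, 2 were called, both lower, and 4 had a log2 fold change above 0. Fabp4, the most abundant of them, was at 395.1 CPM in training hearts and 466.2 CPM in sedentary hearts. The endothelial score differed by −0.056, training minus sedentary, with overlapping groups. Atrial markers ranged from 5138 to 7717 CPM in training hearts and from 2870 to 6935 CPM in sedentary hearts, with 2 of 10 called higher and 1 lower. The log2 fold change was above 0 in 9 of the 10 atrial markers, and their score differed by 0.43. Smooth muscle and pericyte markers summed to between 3069 and 3476 CPM and between 3376 and 3504 CPM, with 2 called higher and 1 lower. Des, at 1906 and 2063 CPM, was the largest part of that sum, whereas the score of this list differed by 0.12, training minus sedentary. Among macrophage, neutrophil, lymphocyte and adipocyte markers edgeR and DESeq2 called 0, with 2 and 3 at an unadjusted p below 0.05, and their sums overlapped between the groups.

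The fit was repeated with such marker levels as a covariate. With the mean log2 level of the cardiomyocyte markers, the log2 fold change of Bcl2l1 was −0.43 (adjusted p = 0.284) and that of Bcl2l11 was 0.34 (adjusted p = 0.396). With the fibroblast markers the values were −0.48 (adjusted p = 0.123) and 0.43 (adjusted p = 0.164). Neither gene was called in these fits, which left 0 members called against 4 and 5 members at an unadjusted p below 0.05. Over all genes 58 and 74 were called in these fits, against 1084 in the main fit. Both covariates were added after seeing the data. Both genes were called with the atrial markers (−0.53, adjusted p = 0.0806, and 0.46, adjusted p = 0.0929) and with the endothelial markers, also added after seeing the data (−0.79, adjusted p = 0.00988, and 0.40, adjusted p = 0.0884). Bcl2l1 is strongly expressed in red cell precursors, and 10 erythroid markers summed to between 106.1 and 161.6 CPM in training hearts and between 127.6 and 200.3 CPM in sedentary hearts. Of the 7 erythroid markers tested, 0 were called by edgeR or DESeq2, with 1 and 0 at an unadjusted p below 0.05. With their score as a covariate the log2 fold change of Bcl2l1 was −0.71 (adjusted p = 0.0110) and that of Bcl2l11 was 0.38 (adjusted p = 0.0754). The marker scores and the training were partly confounded in these 10 hearts, so their part in the differences cannot be told apart from that of training.

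Each anti-apoptotic member was next set against each effector and BH3-only member within the same heart, as the log2 ratio of their read counts. Such a ratio does not depend on how libraries are scaled, and differences between the groups are a description with no test. Of the 15 ratios, only that of Bcl2l1 to Bcl2l11 had groups that did not overlap. That separation follows from the levels above, as every training heart was lower in Bcl2l1 and higher in Bcl2l11 than every sedentary heart. The ratio was 1.499, 1.33, 1.70, 1.35 and 1.42 in training hearts 1 to 5. In sedentary hearts 1 to 5 it was 1.95, 2.53, 2.64, 2.83 and 2.40. The mean log2 ratio was 1.46 ± 0.15 (SD, n = 5) in training hearts and 2.47 ± 0.33 (SD, n = 5) in sedentary hearts, so it fell by 1.01 on the log2 scale. Leaving out each heart in turn gave differences between −1.14 and −0.92. Groups that stand apart cannot come to overlap when a heart is left out, so the number of ratios apart could only stay or rise. The number of ratios with groups apart rose from 1 to 6 without sedentary heart 1, namely all 5 ratios of Bcl2l1 and that of Mcl1 to Bcl2l11. It was 3 when training heart 3 was left out. It was 2 when training heart 2, training heart 5 or sedentary heart 4 was left out.

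The ratios of Bcl2l1 to the other pro-apoptotic members were also lower on average but overlapped between the groups with all 10 hearts. The mean difference in log2 ratio was −0.60 against Bax, −0.47 against Bak1, −0.59 against Bad and −0.57 against Bbc3. The 4 ratios of Bcl2 to Bax, Bak1, Bad and Bbc3 differed by between 0.086 and 0.22, and the same 4 ratios of Mcl1 by between 0.061 and 0.20. Against Bcl2l11, the mean log2 ratio of Bcl2 differed by −0.32 and that of Mcl1 by −0.35, both with overlapping groups. For Mcl1 over Bcl2l11 the overlap was narrow, with a highest training value of 3.59 and a lowest sedentary value of 3.57.

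**Figure D3:**
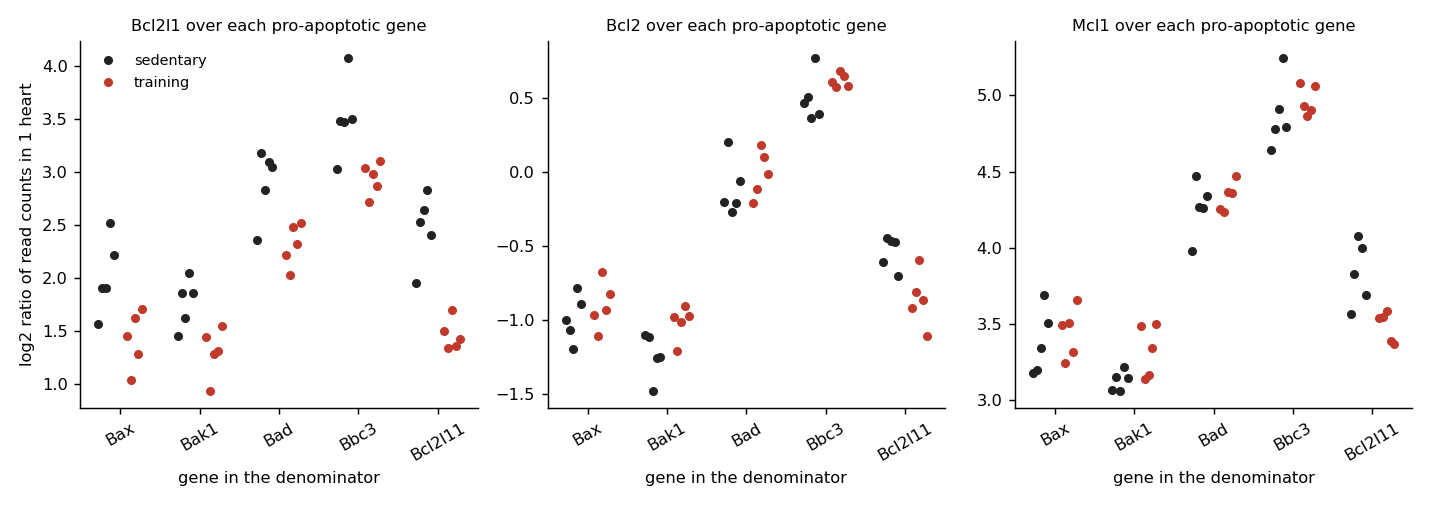
Log2 ratio of read counts of Bcl2l1 (left), Bcl2 (middle) and Mcl1 (right) over each effector or BH3-only gene, 1 point per heart, sedentary in black and training in red, with a separate vertical scale for each panel. With all hearts, only Bcl2l1 over Bcl2l11 separates the groups, at 1.33 to 1.70 in training hearts and 1.95 to 2.83 in sedentary hearts.

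Levels of different genes were compared per transcript length, as the authors' TPM, a value relative to library size and transcript length. Bnip3 was the most abundant member in all 10 hearts, at 120.4 ± 9.59 TPM (SD, n = 5) in training hearts and 127.8 ± 16.2 TPM (SD, n = 5) in sedentary hearts. Mcl1 followed at 68.6 ± 4.74 and 65.1 ± 3.20 TPM. Bcl2 was the least abundant member in all 10 hearts, at 1.55 ± 0.12 and 1.42 ± 0.15 TPM, which placed it above 26.0% of the tested genes by mean TPM. The order in sedentary hearts was Bnip3, Mcl1, Bcl2l1, Bax, Bcl2l13, Bad, Bak1, Bbc3, Bcl2l11 and Bcl2.

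Most neighbours in that order did not overlap in range over the 10 hearts, but 3 pairs did. By the authors' TPM, Bcl2l1 and Bax changed places with the group. Bcl2l1 was at 26.3 ± 2.64 TPM in training hearts and 39.2 ± 5.65 TPM in sedentary hearts, and Bax at 33.0 ± 2.78 and 32.3 ± 5.81 TPM. Bcl2l1 exceeded Bax in 4 of 5 sedentary hearts and in 5 of all 10 hearts. Bad exceeded Bak1 in 8 of 10 hearts, and Bbc3 exceeded Bcl2l11 in 8 of 10 hearts. The uniquely mapped counts divided by effective length and scaled to TPM gave the same order of the 10 sedentary means, but there Bcl2l1 lay above Bax in both groups. The means were 41.3 against 38.6 TPM in training hearts and 62.7 against 37.2 TPM in sedentary hearts.

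**Figure D4:**
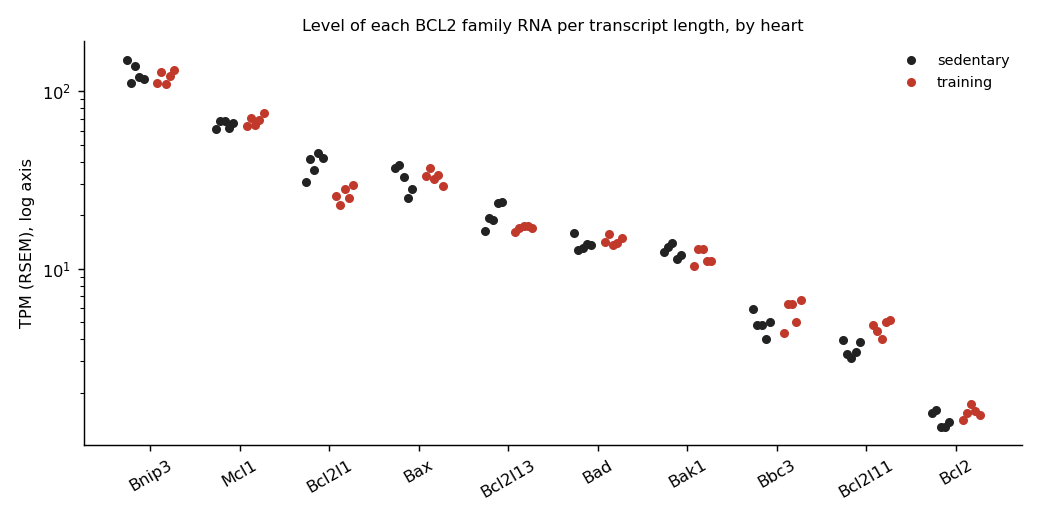
TPM of each BCL2 family gene on a logarithmic axis, 1 point per heart, sedentary in black and training in red, ordered by the sedentary mean. Bnip3 lies highest (109.9 to 150.6 TPM) and Bcl2 lowest (1.29 to 1.73 TPM), and the red points of Bcl2l1 lie below its black points.

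The summed TPM of the anti-apoptotic members was 96.4 ± 5.92 (SD, n = 5) in training hearts and 105.7 ± 6.89 (SD, n = 5) in sedentary hearts, with overlapping ranges. The summed TPM of the effectors and BH3-only members was 69.6 ± 3.903 and 67.2 ± 7.36. The ratio of these sums overlapped between the groups, at 1.24 to 1.59 in training hearts and 1.25 to 1.88 in sedentary hearts. The share of Bcl2l1 in the anti-apoptotic sum did not overlap, at 24.2% to 29.9% in training hearts and 32.9% to 41.6% in sedentary hearts. Bcl2l1, already called lower, is the numerator of this share. Most of the anti-apoptotic sum in both groups came from Mcl1. Both sums hold only the members taken here. Other relatives are left out, such as the anti-apoptotic Bcl2l2, at 51.7 CPM in training hearts and 47.6 CPM in sedentary hearts. The same holds for the BH3-only Bmf, at 6.41 and 5.36 CPM.

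Isoform values were not analysed here, but the deposited tables give each gene a length weighted by the abundance of its transcripts, which moves when transcript use moves. This is of interest for Bcl2l1 and Bcl2l11, since splicing yields BCL-XL or the pro-apoptotic BCL-XS from the former and BIM forms of different potency from the latter. The weighted length of Bcl2l1 was 2129 ± 23.9 bases (SD, n = 5) in training hearts and 2086 ± 87.5 bases (SD, n = 5) in sedentary hearts (limma adjusted p = 0.771). That of Bcl2l11 was 4225 ± 298.4 and 4045 ± 343.3 bases (limma adjusted p = 0.812). By limma on log2 length, 0 of the 10 members passed an FDR below 0.1, beside 0.0308% of the 12985 genes with a varying length, while 2 members had an unadjusted p below 0.05.

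These 2 were the mitophagy receptors. Bnip3 measured 1603 ± 12.8 bases in training hearts and 1524 ± 32.6 bases in sedentary hearts without overlap between the groups, a log2 difference of 0.074 (SE 0.015, limma adjusted p = 0.191). Bcl2l13 measured 6686 ± 174.0 and 5655 ± 912.6 bases with overlapping groups, a log2 difference of 0.26 (limma adjusted p = 0.453). A longer weighted length lowers TPM at a given count, and Bcl2l13 stood at 16.99 ± 0.55 TPM in training hearts and 20.3 ± 3.16 TPM in sedentary hearts.

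Genes around the family were described from 8 hand-written lists with 144 distinct genes, of which 136 were tested. Of these, 4 were called higher and 13 lower, 12.5% in all, beside the 7.01% of all tested genes. The lists were written with earlier results of these data known. Ywhaq, Nr3c1, Cdkn1a, Fas and Vegfa kept their call whichever heart was left out, whereas the other 12 called genes lost it without at least 1 heart. Over all genes the number called in those fits was 512 to 1490, against 1084 with all hearts.

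Of 19 other BCL2 relatives, 12 were tested and 0 were called by edgeR or by DESeq2, with 2 at an unadjusted p below 0.05 in each. These were Bmf, a BH3-only gene, at 6.41 ± 0.83 and 5.36 ± 0.37 CPM (log2 fold change 0.26, adjusted p = 0.151) and Bcl2l2, which encodes the anti-apoptotic BCL-W, at 51.7 ± 1.74 and 47.6 ± 2.95 CPM (log2 fold change 0.12, adjusted p = 0.185), in training and sedentary hearts. With library totals alone 2 relatives were called. Bid, at 1.12 ± 0.25 and 1.24 ± 0.25 CPM, and Pmaip1, which encodes NOXA, at 0.85 ± 0.10 and 0.88 ± 0.30 CPM, were near the lower end of the tested genes.

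Downstream of the pore, 3 of the 21 genes for the apoptosome, caspases and their inhibitors were called. Cycs, the gene for cytochrome c, was at 115.3 ± 13.8 CPM in training hearts and 138.1 ± 10.1 CPM in sedentary hearts (log2 fold change −0.26, SE 0.074, adjusted p = 0.0714). Dffa, which encodes the inhibitor of the caspase-activated DNase, was at 30.7 ± 2.14 and 35.9 ± 2.33 CPM (log2 fold change −0.23, adjusted p = 0.0481). Casp2 was higher, at 10.4 ± 0.57 and 8.91 ± 0.58 CPM (log2 fold change 0.22, adjusted p = 0.0757). The median log2 fold change of the list was −0.012.

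Among 20 mitochondrial membrane partners of the family, 2 were called, both lower. Opa1, which fuses the inner membrane and shapes the cristae, was at 244.8 ± 8.85 CPM in training hearts and 270.0 ± 12.5 CPM in sedentary hearts (log2 fold change −0.14, adjusted p = 0.0854). Dnm1l, the gene for the fission protein DRP1, was at 156.9 ± 7.93 and 171.7 ± 2.22 CPM (log2 fold change −0.13, adjusted p = 0.0932). Neither overlapped between the groups, and the median of the list was −0.044.

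Of 22 kinases, 14-3-3 proteins and ubiquitin enzymes known to act on members, 2 genes for 14-3-3 proteins were called, both higher. Ywhaq was at 20.3 ± 1.304 CPM in training hearts and 16.95 ± 0.97 CPM in sedentary hearts (log2 fold change 0.26, adjusted p = 0.0316), and Ywhab had a log2 fold change of 0.13 (adjusted p = 0.0594). Of 18 tested transcription factors known to act on members, Nr3c1 was called. It encodes the glucocorticoid receptor and was at 90.3 ± 4.46 and 76.9 ± 2.22 CPM (log2 fold change 0.23, SE 0.042, adjusted p = 0.0158). Foxo1, Foxo3 and Foxo4, factors known to act on Bcl2l11, had log2 fold changes of −0.054, 0.050 and 0.071, with adjusted p-values of 0.629, 0.839 and 0.373.

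Bbc3 and Bax are known targets of p53, and 14 other p53 targets were listed. Of these 3 were called, all lower. Cdkn1a, the gene for the cell cycle inhibitor p21, was at 99.3 ± 6.88 CPM in training hearts and 171.4 ± 31.8 CPM in sedentary hearts without overlap (log2 fold change −0.79, SE 0.10, adjusted p = 0.00504). Fas, a death receptor, was at 15.4 ± 1.396 and 19.3 ± 1.92 CPM (log2 fold change −0.32, adjusted p = 0.0427), and Ccng1, which encodes cyclin G1, at 918.4 ± 37.2 and 1027 ± 50.1 CPM (log2 fold change −0.16, adjusted p = 0.0740). The other 11, Mdm2 among them (log2 fold change −0.052, adjusted p = 0.589), did not pass, and the median of the list was −0.042. Trp53 itself had a log2 fold change of 0.073 (adjusted p = 0.555).

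Bnip3 is a known target of hypoxia-inducible factors, and 3 of 14 other such targets were called, all lower and without overlap between the groups. Vegfa, the vascular growth factor, was at 274.0 ± 12.7 CPM in training hearts and 339.9 ± 27.8 CPM in sedentary hearts (log2 fold change −0.31, SE 0.056, adjusted p = 0.0158). Egln3 and Egln1, oxygen-sensing prolyl hydroxylases, had log2 fold changes of −0.34 (adjusted p = 0.0429) and −0.14 (adjusted p = 0.0814). Of the genes for hypoxia-inducible factors among the listed transcription factors, Hif1a had a log2 fold change of −0.048 (adjusted p = 0.784). Epas1 had one of −0.16 (adjusted p = 0.103), just short of the threshold. The median of the list of targets was −0.024.

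Of 18 genes of the mitophagy machinery, 3 were called, all lower. Map1lc3a, an LC3 protein of the autophagosome, was at 329.2 ± 20.6 CPM in training hearts and 371.4 ± 7.97 CPM in sedentary hearts (log2 fold change −0.17, adjusted p = 0.0531). Phb2, an inner membrane receptor, was at 147.4 ± 6.25 and 164.8 ± 6.43 CPM (log2 fold change −0.16, adjusted p = 0.0521), and Optn, a cargo adaptor, at 103.9 ± 7.30 and 120.3 ± 10.5 CPM (log2 fold change −0.21, adjusted p = 0.0867). Bnip3l, the closest relative of Bnip3, was at 44.6 ± 2.54 and 42.6 ± 2.23 CPM (log2 fold change 0.063, adjusted p = 0.529). The calls in these lists were sensitive to the covariates, since Cdkn1a alone of the listed genes was called with the atrial, the fibroblast or the cardiomyocyte score in the fit. Calls among all genes fell too, from 1084 to 152, 74 and 58 in these fits.

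**Figure D5:**
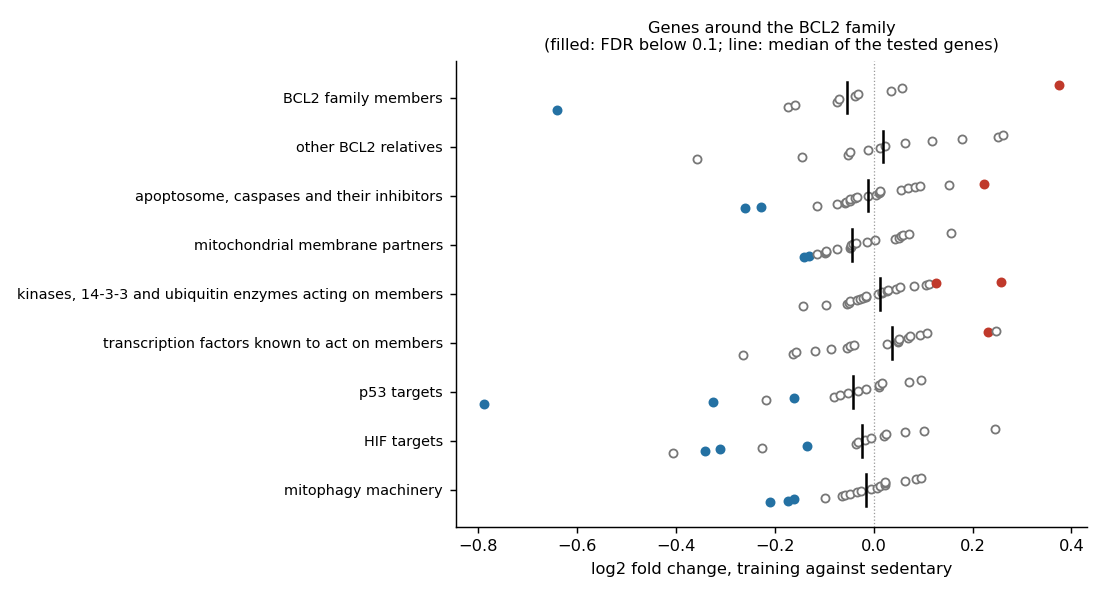
Log2 fold change, training over sedentary, for the BCL2 family and for each gene of 8 hand-written lists, with genes called lower in blue, called higher in red and others open, and the list median as a black line. The medians lie between −0.054 and 0.038, and Bcl2l1 (−0.64) and Cdkn1a (−0.79) lie farthest to the left.

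The genes whose levels across the 10 hearts were most like those of each called member were found among the 8496 genes whose mean level was 10 CPM or more. Likeness was the root mean square difference of log2 CPM after each gene was centred on its own mean. For Bcl2l1 these were Adgrg1 (0.12), Mcf2l (0.12), Timp4 (0.13), Gpihbp1 (0.13) and Lrrc8a (0.13), beside a root mean square of 0.36 for Bcl2l1 itself. All 5 were called lower, with log2 fold changes between −0.62 and −0.41. For Bcl2l11 they were Crebrf (0.081), Art5 (0.095), Ptch1 (0.11), Pnrc1 (0.12) and Insig1 (0.12), beside 0.24 for Bcl2l11 itself. Of these Crebrf and Ptch1 were called higher, both with a log2 fold change of 0.29. The likeness covers both the difference between groups and the spread within them. Calls among these genes therefore follow in part from how they were picked. Over all tested genes 4.26% were called lower and 2.75% higher.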

How the data were processed

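RNA sequencing of 10 whole mouse hearts, 5 per group, was analysed. The authors deposited, for each heart, raw counts per gene of uniquely mapped reads from STAR 2.7.10a against GRCm39, for both strands and each strand, with no normalization. The authors also deposited estimated counts (RSEM's expected count), TPM and weighted lengths in bases per gene from RSEM 1.3.3, which shares out reads that match several genes. Its strand setting is not given in the sources used here. The reverse-strand counts were used, which held between 94.9% and 95.7% of the stranded counts. Rows without a gene entered neither library sizes nor tests. In the reverse column reads on several loci made up 17.9% to 19.2%, reads on no gene 4.15% to 4.89%, ambiguous reads 0.94% to 0.998% and unmapped reads 0.837% to 1.05%.

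The training libraries held between 29461697 and 35945417 counts and those of sedentary hearts 35196993 to 39431030. Chi-square over its degrees of freedom was 6.16 to 27.4 for pairs of hearts of a group, above counting noise, so errors are given between hearts. Symbols and positions came from GENCODE M39, which matched 56017 of 56748 identifiers. In R 4.3.3, edgeR 4.0.16 was run with filterByExpr, TMM, glmQLFit and the quasi-likelihood F test over all genes, and standard errors were derived from F. Intervals are 95%. DESeq2 1.42.0 was an alternative. Lengths were compared with limma 3.58.1 on log2 values. Logarithms of CPM used a prior count of 2. TPM are the authors' values. Alternatives were other tools, scalings, filters and counts (expected counts were rounded), thinned counts, each heart left out, the mouse number as a block and marker scores as covariates. The steps were tested on simulated data.

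Named were the 10 members, up to 6 called genes per list with the largest log2 fold change, and the 5 genes most alike to each called member; other list genes in the text were chosen after their values were seen. The members and lists were chosen with earlier results of these data known. Groups were taken from the titles. Voluntary running data, which the study also compared, were not used here.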

Additional observations from a re-analysis of the deposited data

How the results depend on the processing

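Bcl2l1 stayed lower and Bcl2l11 higher in all 24 alternative fits, and both kept their call in 22. The log2 fold change lay between −0.73 and −0.59 for Bcl2l1 (adjusted p at most 0.0277) and between 0.32 and 0.42 for Bcl2l11 (adjusted p at most 0.0868) when each heart was left out in turn, and the members called then numbered 2 to 3. The calls were lost with the fibroblast score as a covariate (0 members called, Bcl2l1 −0.48, Bcl2l11 0.43) and with the cardiomyocyte score (0 members called, −0.43 and 0.34), both added after seeing the data. In these fits 5 and 4 members had an unadjusted p below 0.05 by edgeR. Of all genes 74 and 58 were called there, against 1084 in the main fit. The cause was not tested.

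Of the listed pathway genes 17 were called, and 6 to 23 when each heart was left out. Over all genes 512 to 1490 were called in those fits, against 1084 in the main fit. The listed genes called were 8 without training heart 3, 6 without training heart 4, 7 without sedentary heart 2, 6 without sedentary heart 3 and 8 without sedentary heart 4. In the same order 540, 512, 611, 512 and 671 of all genes were called. The count of listed genes was 1 with the atrial, the fibroblast or the cardiomyocyte score, 9 with the erythroid score, 10 with the endothelial score and 7 at an FDR below 0.05. Of all genes 658 were called with the erythroid score and 863 with the endothelial score. DESeq2 called 22 listed genes, with 5 HIF targets against 3 and 3 transcription factors against 1. Genes called by weighted length, 4 with all hearts, numbered 0 to 8 when each heart was left out, with 1090 to 1347 genes at an unadjusted p below 0.05. The count was 0 without training heart 5, sedentary heart 3 or sedentary heart 4.

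Signs turned only in genes that were not called. Bax was positive with library totals (0.019), the atrial score (0.069) and the endothelial score (0.10), and ranged from −0.10 to 0.041 when each heart was left out. Bad was positive with library totals (0.013), thinned counts (0.0053) and the erythroid score (0.0096), and ranged from −0.077 to 0.0021 when each heart was left out. Bbc3 was positive with the atrial score (0.017) and the endothelial score (0.056), Mcl1 was negative with the endothelial score (−0.021), and Bcl2l13 was positive with the cardiomyocyte score (0.019).

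Over all genes 1084 were called, 425 of them higher, against 1368 and 1029 with library totals, which moved the median of all genes by 0.053, and 1473 with DESeq2, 152 with the atrial score, 74 with the fibroblast score, 58 with the cardiomyocyte score and 505 at an FDR below 0.05. Mouse numbers shared by the groups were not treated as pairs in the main fit. The correlation of the residuals of mice with the same number lay between −0.097 and 0.16. Mice of unlike number were not compared in this way, so these values cannot tell whether the numbers pair the mice. With the mouse number as a replicate block, Bcl2l1 was at −0.63 (adjusted p = 0.0155), Bcl2l11 at 0.38 (adjusted p = 0.0209), 2 members, 14 listed genes and 1137 genes in all were called. The member with the fewest reads was Bbc3, with 186 to 293 per heart, and its 95% interval from −0.27 to 0.13 was no wider than that of Bcl2l1. A check for a heart apart from the others of its group flagged 0 of 70 sets of member levels, lengths and ratios. With so few hearts per group such a check can miss a heart, so it cannot show that none stood apart. Sedentary heart 1 had 59.35 CPM of Bcl2l1, against 74.1 to 89.51 CPM in the other sedentary hearts. Without sedentary heart 1, the number of ratios with groups apart rose from 1 to 6.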
